A study of Mus musculus with 2 samples.

Results

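The NRF2 pathway genes examined here are the transcription factor *Nfe2l2* (NRF2), its negative regulators *Keap1* and *Bach1*, and 7 antioxidant enzymes and enzyme subunits: *Gclc*, *Gclm*, *Gpx1*, *Txnrd1*, *Prdx1*, *Srxn1* and *Nqo1*. They were taken by gene symbol from a fixed list of 10 names. Of these, 9 had a row among the 13549 genes in the count table, and *Nqo1*, a quinone reductase, had none and was not analysed here. All 9 had at least 20 reads over both libraries, as did 13037 of all genes, and they ranged from 688 to 8590 reads.

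The cells were microglia, the resident macrophages of nervous tissue, sorted from mouse retina at postnatal day 5. All animals carried CD11c-Cre-gfp, in which the promoter of the integrin subunit CD11c drives Cre recombinase and green fluorescence, and Rosa-TDTom, a red reporter that Cre switches on for good. The Cd11c-active group was positive for both colours (4041 cells), and the Cd11c-lineage group was red without green (5441 cells). Both came from 1 pool of 8 retinas, described as 4 female and 4 male, and the reporter only marks cells that use or have used the CD11c promoter. The labels name no treatment beside the sort. Each group gave 1 library, so the difference between groups has no replicate check and no p-value is given. A call below means only that a fold threshold was passed.

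The libraries held 12943998 (Cd11c-active) and 13402625 (Cd11c-lineage) reads. Ratios are Cd11c-active over Cd11c-lineage on the log2 scale after TMM scaling, which centres the ratios (the median of all tested genes was 0.01). Intervals in brackets are 95% counting intervals. They are too narrow as a guide to differences between cells: among genes with 200 to 12799 reads, in 6 ranges of reads, log2 ratios had a robust SD of 8.93 to 12.03 times the one from counting. Each gene is therefore also placed among the 500 genes nearest to it in abundance. The 14 microglial markers checked all had reads in both libraries, with log2 ratios between -0.54 and 0.59 and a median of 0.02. The 8 endothelial markers summed to 7974 and 1035 reads, and *Cldn5*, *Esam*, *Flt1*, *Tek* and *Plvap* were at 0 in Cd11c-lineage. The 5 mural markers were all at 0 in Cd11c-lineage, and the 4 of them with at least 20 reads summed to 763 in Cd11c-active. Markers of Müller glia and astrocytes with at least 20 reads went both ways, with *Slc1a3* at 73 and 642 reads, *Rlbp1* at 94 and 0, *Sox9* at 43 and 18 and *Glul* at 27773 and 33293. Some other markers were higher in Cd11c-lineage. Those of border macrophages with at least 20 reads summed to 262 and 1794 reads, with 4 of 4 lower in Cd11c-active and 3 of them at 0 there. Those of retinal neurons summed to 1678 and 3362, with 8 of 9 lower. Those of monocytes and neutrophils summed to 35 and 239, with 3 of 4 lower and at 0 in Cd11c-active. The ribosomal RNA *Rn18s* took 8.57% of Cd11c-active reads and 2.84% of Cd11c-lineage reads. The part of these other cells and of leftover ribosomal RNA in the values below was not tested. In sorted bulk RNA, fewer cells that express a gene and less RNA per cell cannot be told apart.

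NRF2 is a transcription factor that is made continuously and, in unstressed cells, is bound by KEAP1 and sent for degradation through a cullin ubiquitin ligase. Oxidants and electrophiles modify KEAP1, so that NRF2 builds up, pairs with small MAF proteins and binds antioxidant response elements beside genes for glutathione and thioredoxin enzymes. BACH1, a repressor that heme releases from DNA, competes for the same elements. Control therefore acts largely on protein, and transcript levels of the regulator are not a measure of its activity. Macrophages use these enzymes to withstand the oxidants and heme that come with engulfing other cells.

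The response element was looked for as TGACNNNGC, on both strands, in RefSeq promoters (GRCm38.p6) running from 250 bases before to 50 bases after the start of transcription. A promoter was given for 9 of the 10 names (*Gclc* had none), and *Txnrd1* had 3. The motif was present for 5 of these 9 genes, against 3781 of all 27025 symbols in the table, and in 5 of their 11 promoters, against 12.4% of all 32851. Of the 3 promoters of *Txnrd1*, 1 held it. Among the genes with a match, *Nfe2l2* had the lowest log2 ratio of the 9 measured genes (-0.63) and *Gclm* was near level (0.05). A link between match and ratio was not tested. The 5 matches are shown because 3 of them belong to the genes that had the highest ratios, *Srxn1*, *Txnrd1* and *Prdx1*. Each is read on the strand of the motif, with the motif in capitals and 10 bases on either side:
Prdx1 (chr4:116685456-116685484, minus strand): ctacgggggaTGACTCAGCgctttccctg
Txnrd1 (chr10:82859104-82859132, minus strand): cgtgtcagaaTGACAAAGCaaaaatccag
Srxn1 (chr2:152105542-152105570, minus strand): tgtctcactcTGACCTAGCtgcccactgc
Gclm (chr3:122245413-122245441, minus strand): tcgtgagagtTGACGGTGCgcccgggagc
Nfe2l2 (chr2:75704885-75704913, minus strand): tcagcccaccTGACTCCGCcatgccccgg

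The match of *Prdx1* lies 133 bases before the start, that of *Txnrd1* 92, that of *Gclm* 134 and that of *Nfe2l2* 240, while that of *Srxn1* lies 28 bases past it. The letters were not found in these windows for *Keap1*, *Bach1*, *Gpx1* and *Nqo1*. A second search used TGANTCA, the core shared with AP-1 factors, which was present in 7.81% of all promoters and in those of *Srxn1* and *Prdx1*, with 2 matches each. One match in *Prdx1* overlaps the element printed above. Those of *Srxn1*, shown because its downstream element lies past the start, are on the plus strand, 102 and 45 bases before it:
Srxn1 (chr2:152105412-152105438, plus strand): tcggagggccTGAGTCAccacgctgtg
Srxn1 (chr2:152105469-152105495, plus strand): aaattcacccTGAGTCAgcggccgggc

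A match describes these letters only, and no binding was measured here.

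*Nfe2l2*, the regulator itself, and *Keap1*, its cytoplasmic repressor, both had lower levels in Cd11c-active. *Nfe2l2* gave 1531 reads in the Cd11c-active library and 2705 in the other, or 124 and 193 CPM (reads scaled to a common library size). In this order, Cd11c-active first, all pairs of values are given below. Its log2 ratio was -0.63 (-0.73 to -0.54), so its level was 1.55-fold higher in Cd11c-lineage. Only 8.0% of the 500 genes of like abundance had a lower ratio. *Keap1* had 718 and 1211 reads, or 58.2 and 86.2 CPM. Its ratio was -0.57 (-0.70 to -0.43), at percentile 16.2 of its neighbours in abundance. The regulator and its partner thus had ratios of similar size: there were 2.13 *Nfe2l2* reads per *Keap1* read in Cd11c-active and 2.23 in Cd11c-lineage, and the interval of the quotient of these values, 0.853 to 1.07, held 1.

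*Bach1*, the heme-sensitive repressor of the same target genes, was the member with the most reads and was nearly level. It had 4156 and 4434 reads, or 337 and 316 CPM, a log2 ratio of 0.09 (0.03 to 0.15). That value was at percentile 62.6 of its neighbours and became -0.04 when libraries were scaled to their totals. *Nfe2l2* relative to *Bach1* was accordingly lower in Cd11c-active, with 0.368 *Nfe2l2* reads per *Bach1* read against 0.610. The quotient was 0.604 (counting interval 0.559 to 0.652). Such quotients within a library do not depend on how the libraries are scaled. The 10 pairs examined this way were chosen after the reads were seen.

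**Figure D1:**
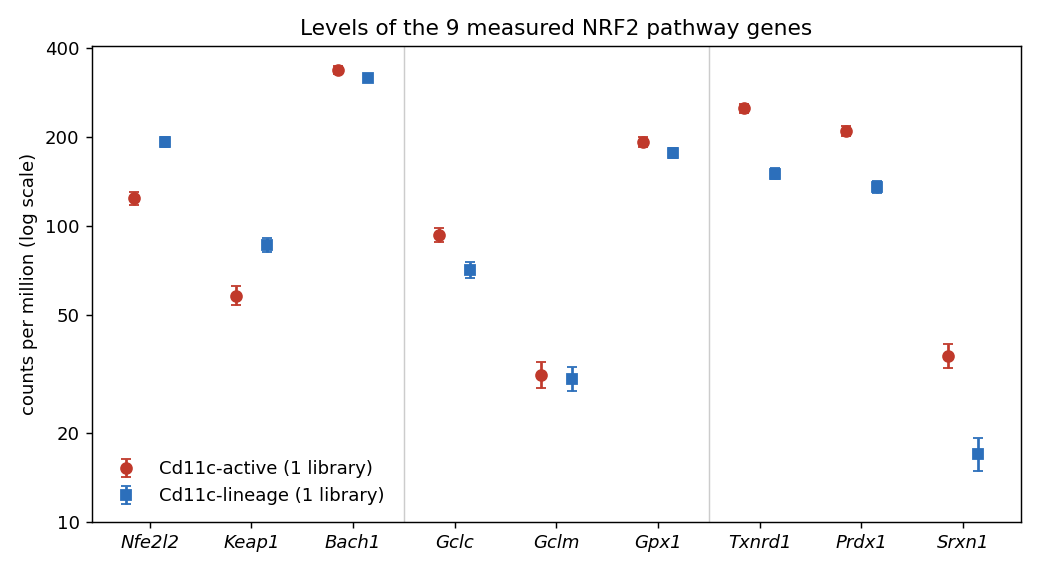
CPM after TMM scaling (log axis) of the 9 measured genes, in the order regulators, glutathione enzymes, thioredoxin and peroxiredoxin enzymes; circles are the Cd11c-active library, squares the Cd11c-lineage library, and bars are exact 95% Poisson counting intervals. *Nfe2l2* and *Keap1* are higher in Cd11c-lineage, *Txnrd1*, *Prdx1*, *Srxn1* and *Gclc* are higher in Cd11c-active, and the bars of *Gclm* overlap.

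The glutathione genes lay closer together. *Gclc* encodes the catalytic subunit of glutamate-cysteine ligase, which makes the rate-limiting precursor of glutathione, and *Gclm* encodes its modifier subunit. *Gclc* had 1151 and 1001 reads, or 93.2 and 71.2 CPM, a log2 ratio of 0.39 (0.26 to 0.51) at percentile 75.0. *Gclm* had 388 and 427 reads, or 31.4 and 30.4 CPM, a ratio of 0.05 (-0.15 to 0.25) at percentile 49.0. The interval of *Gclm* was the only one of the 9 that held 0. By counting error alone the subunits differed in ratio: there were 2.97 *Gclc* reads per *Gclm* read in Cd11c-active and 2.34 in Cd11c-lineage, a quotient of 1.27 (1.07 to 1.49). With a linear trend on transcript length and GC content taken out, the ratios of *Gclc* and *Gclm* lay closer, at 0.43 and 0.30. In the GENCODE annotation, *Gclm* shares bases on its own strand with *Gm6061*, a transcribed pseudogene listed with 126 and 0 reads. Reads of this locus may have been divided between these genes. Counting the reads of *Gm6061* as *Gclm* would raise the ratio of *Gclm* and lower the quotient, which was not recomputed.

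*Gpx1* encodes a selenium-containing peroxidase that uses glutathione to remove hydrogen peroxide. It had 2377 and 2477 reads, or 193 and 176 CPM. Its log2 ratio of 0.13 (0.05 to 0.21) was at percentile 64.0, and it was -0.01 with library totals and -0.26 once a linear trend of ratios on transcript length and GC content had been taken out. Its transcript was the shortest of the 9, at 1072 bases. The direction of *Gpx1*, like that of *Bach1* and *Gclm*, therefore depended on the scaling or correction chosen.

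The highest ratios were those of the genes of the thioredoxin and peroxiredoxin cycle. *Txnrd1*, the selenium-containing reductase that keeps cytosolic thioredoxin active, had 3092 and 2112 reads, or 250 and 150 CPM. Its log2 ratio was 0.74 (0.66 to 0.82), or 1.67-fold higher in Cd11c-active. It stood at percentile 95.8 of its neighbours, the highest percentile of the 9 genes. *Prdx1*, a peroxiredoxin that reduces peroxides and is recharged by thioredoxin, had 2583 and 1906 reads, or 209 and 136 CPM. Its ratio was 0.62 (0.54 to 0.71), or 1.54-fold, at percentile 90.2.

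*Srxn1* encodes sulfiredoxin, which restores peroxiredoxins that have been over-oxidised. It had 450 and 238 reads, or 36.4 and 16.9 CPM, and a log2 ratio of 1.10 (0.88 to 1.34), a 2.15-fold higher level in Cd11c-active. This was the largest ratio of the 9, but it rested on the fewest reads. At this abundance 33.8% of the 500 neighbours differed by at least 1 on the log2 scale, and *Srxn1* stood at percentile 82.4. *Txnrd1*, with a smaller ratio and more reads, had 2.8% of its neighbours past that fold.

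*Txnrd1* and *Prdx1*, whose products work in sequence, had 1.20 and 1.11 reads of the first per read of the second in Cd11c-active and Cd11c-lineage, a quotient of 1.08 (0.995 to 1.17) whose interval held 1. Set against *Gpx1*, both were higher in Cd11c-active, *Txnrd1* by a quotient of 1.53 (1.41 to 1.65) and *Prdx1* by 1.41 (1.30 to 1.53). Against *Nfe2l2*, the quotients were 2.59 (2.38 to 2.81) for *Txnrd1* and 2.39 (2.19 to 2.61) for *Prdx1*. These last quotients restate the single ratios, of which that of *Nfe2l2* was below 0.

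By role, the reads of the regulators *Nfe2l2*, *Keap1* and *Bach1* summed to 6405 and 8350, a log2 ratio of -0.20 (-0.24 to -0.15). With library totals it was -0.33 (-0.38 to -0.29). *Bach1*, at 0.09, gave the most of these reads, and the median of the 3 ratios was -0.57. The reads of *Gclc*, *Gclm* and *Gpx1* summed to 3916 and 3905, a ratio of 0.19 (0.13 to 0.25). With library totals that sum came to 0.05 (-0.01 to 0.12), an interval that holds 0. Those of *Txnrd1*, *Prdx1* and *Srxn1* summed to 6125 and 4256, a ratio of 0.71 (0.66 to 0.77), or 0.58 (0.52 to 0.63) with library totals. These sums are of 3 genes each; the wider lists of both enzyme roles, given below, spread over both directions.

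**Figure D2:**
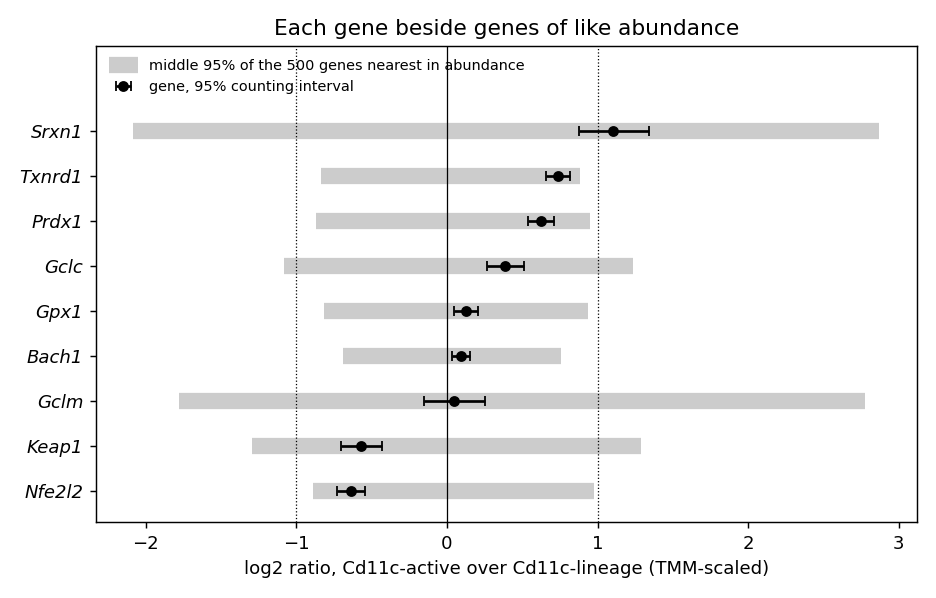
Log2 ratio of each gene (points, with 95% counting intervals as thin bars) over the middle 95% of the ratios of the 500 genes nearest in abundance (grey bars); dotted lines mark -1 and 1. All 9 points lie inside their grey bars, with *Txnrd1* at 0.74 near the upper end of a bar that reaches 0.88 and *Nfe2l2* at -0.63 above a lower end of -0.89.

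All 9 genes lay within the middle 95% of their neighbours. The median log2 ratio of the 9 was 0.13, with 7 above 0 and 2 below under TMM but 4 above and 5 below with library totals, beside 0.01 over all tested genes and -0.004 over the 5779 genes with 600 to under 10000 reads. At an absolute log2 ratio of at least 1, 1 of the 9 was called, *Srxn1*, higher in Cd11c-active. The same was true of 44.9% of all tested genes (23.3% higher and 21.6% lower) and of 15.5% of the genes with 600 to under 10000 reads (8.84% higher and 6.66% lower). The share of the members, 11.1%, is thus near that of genes with like reads. *Srxn1* came to 0.97 with library totals and 0.99 after trend removal, both under the threshold. At an absolute ratio of at least 0.5, 5 of the 9 passed, *Srxn1*, *Txnrd1* and *Prdx1* higher and *Nfe2l2* and *Keap1* lower, beside 64.2% of all tested genes and 43.4% of those with 600 to under 10000 reads. The authors' deposited table gives log2 fold changes of -0.77 for *Nfe2l2*, -0.70 for *Keap1*, 0.49 for *Prdx1*, 0.60 for *Txnrd1* and 0.97 for *Srxn1*. It gives 0.25 for *Gclc*, and values of -0.04 for *Bach1*, -0.09 for *Gclm* and -0.01 for *Gpx1*, whose sign is opposite to that under TMM. Each is 0.14 below the TMM value.

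**Figure D3:**
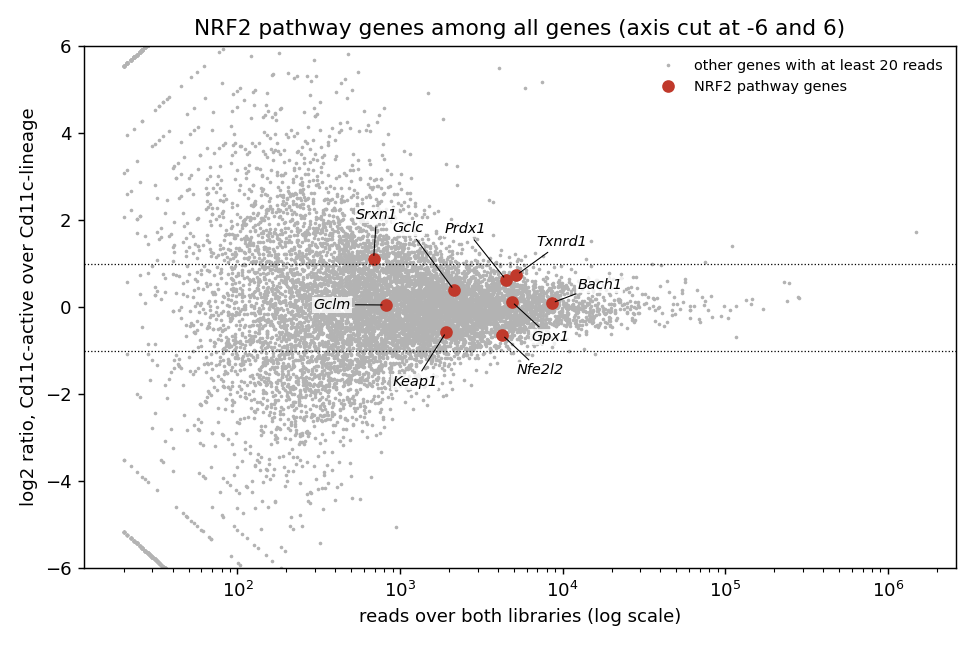
Log2 ratio against the reads over both libraries (log axis) for genes with at least 20 reads; grey points are other genes, red points the 9 NRF2 pathway genes, and dotted lines mark -1 and 1. The vertical axis ends at -6 and 6, beyond which 2429 genes lie; the spread narrows as reads increase, and *Srxn1* sits in a wider part of the cloud than *Txnrd1*, *Prdx1* and *Nfe2l2*.

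Levels of different genes were compared as CPM per kilobase of the longest annotated transcript, which is approximate where a shorter form is used. *Gpx1* was the highest of the 9 in both libraries, at 180 in Cd11c-active and 164 in Cd11c-lineage, and *Gclm* the lowest, at 5.62 and 5.44. In Cd11c-active the order from the top was *Gpx1*, *Prdx1* (91.2), *Txnrd1* (69.1), *Bach1* (57.4), *Nfe2l2* (50.1), *Gclc* (27.2), *Keap1* (16.1), *Srxn1* (12.96) and *Gclm*. In Cd11c-lineage *Nfe2l2* came second at 77.8, followed by *Prdx1* (59.1), *Bach1* (53.8), *Txnrd1* (41.5), *Keap1* (23.8), *Gclc* (20.8) and *Srxn1* (6.02). *Nfe2l2* was thus at rank 5 in one library and rank 2 in the other, and *Txnrd1* at rank 3 and rank 5. Of the 8 gaps between neighbours in this order, 4 in Cd11c-active and 5 in Cd11c-lineage were smaller than the robust SD of log2 ratios at that abundance. These included every gap between neighbours among *Prdx1*, *Txnrd1*, *Bach1* and *Nfe2l2*. That SD describes differences of a gene between the libraries, not the error of a gap between genes. It is a yardstick only and does not settle the order of those genes.

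Other genes of the pathway were taken from 7 lists, which partly overlap and hold 127 genes besides the 10 names. Of the 116 with at least 20 reads, 30 were past the fold higher in Cd11c-active and 10 lower, or 34.5% in all, against 44.9% of all tested genes, with a median log2 ratio of 0.38. The share past the fold falls with the number of reads, and most of the listed genes are well read. Among the 103 with at least 200 reads, 20 were higher and 8 lower past the fold (27.2%), with a median of 0.34. Over all genes with at least 200 reads, 26.3% were past the fold (14.1% higher and 12.2% lower), and each list below is also counted at that minimum. The members are left out of every list count and median that follows.

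Among 11 other regulators, all with at least 200 reads, 0 were past the fold higher and 1 lower, with a median of -0.16. That share, 9.09%, stood beside 26.3% of all such genes and 15.5% of those with 600 to under 10000 reads. The lower one was *Btrc*, an adaptor of a ubiquitin ligase that also targets NRF2, with 78 and 444 reads and a ratio of -2.31 (-2.69 to -1.97). *Sqstm1*, the autophagy receptor that binds KEAP1, had 8982 and 8651 reads and a ratio of 0.24 (0.20 to 0.28). *Gsk3b*, a kinase that marks NRF2 for that ligase, had 1849 and 3088 reads and a ratio of -0.55 (-0.64 to -0.47). The other partners were looked up after their values were seen: *Cul3* and *Rbx1*, of the ligase that KEAP1 serves, were at 0.42 and 0.45. The small MAF genes did not share a direction, with *Mafg* at 0.34, *Mafk* at -0.36 and *Maff* at -0.81.

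Of 23 other glutathione genes with at least 20 reads, 7 were past the fold higher and 3 lower (43.5% in all), with a median of 0.39. Of the 17 with at least 200 reads, 3 were higher and 2 lower (29.4%, beside 26.3% of all such genes). *Gss*, the enzyme that completes glutathione, had 248 and 81 reads and a ratio of 1.79 (1.43 to 2.18), and *Hagh*, a glyoxalase, had 463 and 156 and a ratio of 1.75 (1.49 to 2.03). The glutaredoxin *Glrx* was at 1.20, and the mitochondrial glutaredoxin *Glrx5* and the cyclotransferase *Ggct* were at -1.43 and -1.41. *Slc3a2*, a shared heavy chain of amino acid transporters that include the cystine carrier, had 5518 and 3340 reads and a ratio of 0.91 (0.85 to 0.97). It stood at percentile 98.2 of its neighbours. *Slc7a11*, the other chain of the cystine carrier, was looked up after its value was seen. It had 137 and 172 reads and a ratio of -0.14 (-0.48 to 0.19). *Gpx4*, which reduces lipid peroxides, had 1270 and 1172 reads and a ratio of 0.30 (0.19 to 0.42).

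Of 19 other thioredoxin and peroxiredoxin genes, 5 were past the fold higher and 2 lower (36.8%), with a median of 0.26. At 200 reads or more the counts were 4 and 1 of 17 genes (29.4%), beside 26.3% of all such genes. *Txn1*, the cytosolic thioredoxin that TXNRD1 reduces, had 711 and 309 reads and a ratio of 1.39 (1.19 to 1.59), at percentile 92.6. *Prdx4*, the peroxiredoxin of the endoplasmic reticulum, had 518 and 101 reads and a ratio of 2.54 (2.24 to 2.87). The methionine sulfoxide reductase *Msrb1* was at 2.22 and the mitochondrial thioredoxin *Txn2* at 1.18. *Txndc17*, a thioredoxin-like protein, had 149 and 616 reads and a ratio of -1.86 (-2.13 to -1.60). *Txnip*, which binds and inhibits thioredoxin, and *Prdx5* were near level at -0.07 and -0.05.

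Of 23 quinone, aldehyde, heme and iron genes listed as NRF2 targets, 6 were past the fold higher and 2 lower (34.8%), with a median of 0.35. Among the 22 with at least 200 reads, 5 were higher and 2 lower (31.8%, beside 26.3%). *Hmox1*, the heme oxygenase that BACH1 represses, had 10718 and 4272 reads and stood at percentile 99.6 of its neighbours. The ferritin genes *Fth1* and *Ftl1* stood at percentiles 99.2 and 99.0. These 3 lay above the middle 95% of their neighbours, where none of the 9 members did. Their neighbours were the most abundant genes, from 7991 reads up, so the match in abundance was looser than for the members. *Blvrb*, a biliverdin and flavin reductase, had 363 and 151 reads and a ratio of 1.45 (1.17 to 1.74). *Entpd5*, a nucleotidase of the endoplasmic reticulum, had 301 and 20 reads and a ratio of 4.07. The quinone reductase *Nqo2* had 83 and 218 reads and a ratio of -1.20, and *Aldh7a1*, an aldehyde dehydrogenase, 234 and 784 and a ratio of -1.56 (-1.77 to -1.35).

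Genes that supply NADPH, the electron source of both cycles, had the highest median of the 7 lists, 0.66 over 13 genes, with 3 past the fold higher and 0 lower (23.1%). With at least 200 reads, 2 of 12 were past the fold (16.7%), beside 26.3% of all such genes and 15.5% of those with 600 to under 10000 reads. Ratios were below 0 for 3 of the 13, which are named after their values were seen: *Me2* (-0.26), *Nadk* (-0.24) and *Idh2* (-0.20). *Pgd*, *Taldo1* and *Tkt* of the pentose phosphate pathway had ratios of 0.37, 0.77 and 0.72. *Idh1*, the cytosolic isocitrate dehydrogenase, had 727 and 182 reads and a ratio of 2.18 (1.95 to 2.43). *Pgls*, a lactonase of the same pathway, had 507 and 0 reads, or at least 192-fold more if up to 3 reads are allowed in Cd11c-lineage. Such zeros occur elsewhere: of 2014 genes with 400 to 799 reads, 29 were at 0 in 1 of the libraries.

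The 10 genes of superoxide and hydrogen peroxide handling had a median of -0.02, with 1 past the fold in each direction. All 10 had at least 200 reads, and 2 of 10 is between the 15.5% of genes with 600 to under 10000 reads and the 26.3% of those with at least 200. *Ccs*, the copper chaperone of superoxide dismutase, was higher at 1.77, and *Ncf4*, a subunit of the phagocyte oxidase, lower at -1.54. The oxidase subunits *Ncf1* and *Cyba*, among the list's most read genes, were at -0.31 and 0.61.

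*Gpx1* and *Txnrd1* need selenium, and the 22 other genes of selenoproteins and their synthesis had a median of 0.54, with 9 past the fold higher and 2 lower (11 of 22, beside 44.9% of all tested genes). With at least 200 reads, 6 of 18 were higher and 1 lower (38.9%), beside 26.3% of all such genes. Among those with at least 200 reads were *Sephs2* (1.22), which makes the selenium donor, *Sepsecs* (1.17), which makes the selenocysteine transfer RNA, the selenocysteine lyase *Scly* (1.08), *Selenoi* (1.79) and *Selenoh* (1.24). *Eefsec*, the elongation factor for selenocysteine, was lower at -1.09. *Selenop*, the secreted selenium carrier and the list's most read gene, was near level with 24277 and 26344 reads and a ratio of 0.07 (0.04 to 0.09).

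**Figure D4:**
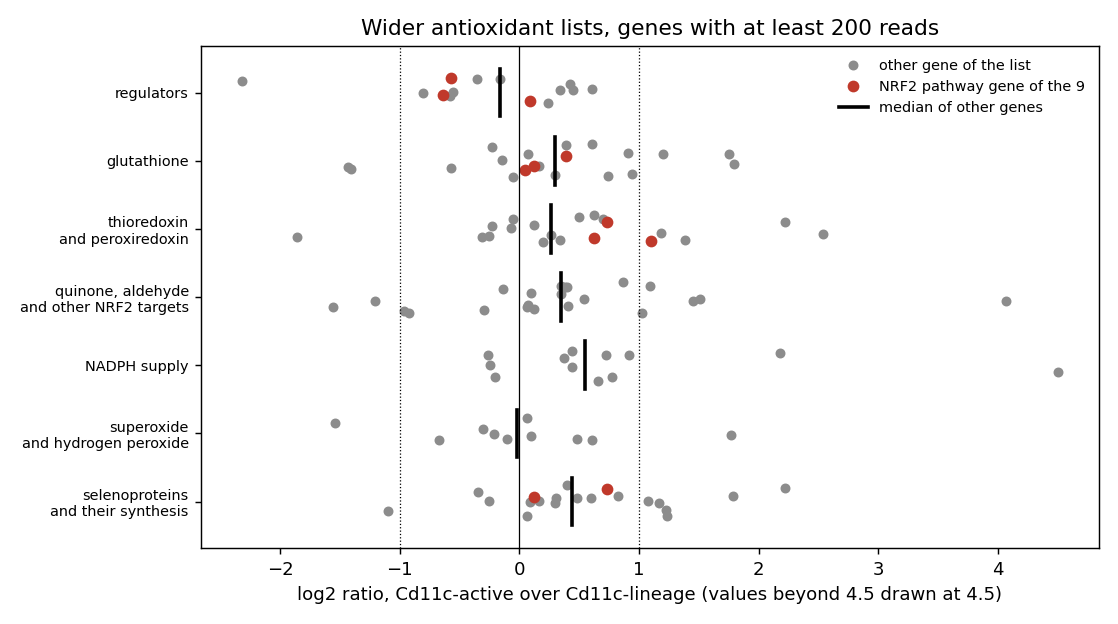
Log2 ratio of each gene with at least 200 reads in the 7 wider lists (118 points, 112 distinct genes, spread vertically for legibility); red points are members, grey points other genes, black bars medians without the members, and dotted lines mark -1 and 1. The median of the regulators is -0.16, those of the thioredoxin and peroxiredoxin and of the NADPH lists are 0.26 and 0.55, and *Pgls* is drawn at the edge.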

How the data were processed

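For each library the deposited table gives unnormalized counts per gene, per the file headers. The submitters' processing notes name cutadapt 3.5, STAR 2.7.9a, featureCounts 1.6.3, edgeR 4.0.16 and GRCm39. Annotation, strand setting and duplicate handling are not given in the sources used here, so reads of overlapping genes or close copies may be split. The log2 fold change and log2 average CPM are the authors', per the file headers. The smallest sum in the table was 6 reads, and 0 columns were left unmapped.

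TMM factors from edgeR 4.0.16 (R 4.3.3) were 0.954 (Cd11c-active) and 1.05 (Cd11c-lineage). Ratios used reads plus 0.5 over the effective library size, with Clopper-Pearson 95% intervals. Because reads carry no molecular identifiers and may repeat a molecule, intervals and limits cover counting error only. Where a gene is at 0, up to 3 reads are allowed (0.243 and 0.214 CPM). Genes needed 20 reads over both libraries. Neighbours were the 500 genes nearest in rank of mean CPM. At the top of the ranking the window is cut, so the most abundant genes share nearly the same neighbours. With 1 library per group, the tests of edgeR and DESeq2 could not be fitted. Named genes were the members and, per list, those with at least 200 reads past the fold and the 3 with the most reads (1 is not reported here). *Cul3*, *Rbx1*, *Mafg*, *Mafk*, *Maff*, *Slc7a11*, *Me2*, *Nadk*, *Idh2* and markers of other cells are named outside that rule, after their values were seen. The members and lists were chosen with earlier results of these data known. Lengths and GC content came from GENCODE M21, which matched 13499 genes (99.6%). Promoters matched by symbol. The computation of ratios and intervals was run on simulated counts, with Poisson spread or a fixed added spread, scaled to library totals. That run checks the computation only. It cannot show whether the intervals cover differences between cells in these data. Computation used Python 3.11.15, numpy 2.4.6, scipy 1.17.1, pandas 2.3.3 and matplotlib 3.10.9.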

Additional observations from a re-analysis of the deposited data

How the results depend on the processing

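Each ratio of the 9 genes was recomputed under 6 other settings: library totals, size factors of DESeq2, TMM without ribosomal, mitochondrially encoded, 7SK and 7SL genes, the microglial markers' median set to 0, a prior count of 5, and removal of a linear trend on length and GC content. *Nfe2l2* stayed between -0.77 and -0.63, *Keap1* between -0.72 and -0.56, *Gclc* between 0.25 and 0.43, *Txnrd1* between 0.60 and 0.75, *Prdx1* between 0.49 and 0.69 and *Srxn1* between 0.97 and 1.10. *Bach1* (-0.04 to 0.27), *Gclm* (-0.09 to 0.30) and *Gpx1* (-0.26 to 0.13) took both signs. Library totals move all ratios by -0.14.

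The number of members past the fold was 0 with library totals and 0 after trend removal, against 1, and 5 at a threshold of 0.5. The median of the members was -0.0092 with library totals and 0.30 after trend removal. Over all genes, 5851 were past the fold, and 2353 with at least 200 reads required, where fewer genes were tested. In the wider lists 40 were past the fold and 64 at a threshold of 0.5. The 30 higher and 10 lower became 27 and 13 with library totals and 26 and 13 after trend removal. The median of these lists, 0.38, became 0.24 with library totals and 0.35 after trend removal. No paired analysis was possible because each group has 1 library.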
